A study of Mus musculus with 32 samples.

Results

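The genes of de novo lipogenesis in mouse liver were followed across genotype, diet and feeding state. They were chosen by name, as 9 of the 20076 genes in the count table: Slc25a1, Acly, Acss2, Acaca, Acacb, Fasn, Me1, Elovl6 and Thrsp. All 9 were counted in enough mice to be tested, among 11566 genes tested in all. The livers came from male C57BL/6J mice that carried an Acadm knockout (KO) or were wild-type littermates (WT). Acadm encodes medium-chain acyl-CoA dehydrogenase (MCAD), which takes part in mitochondrial fatty acid oxidation. The mice received a low-fat (LF) or a high-fat (HF) semisynthetic diet for 6 weeks and were then fed or fasted for 16 h, with 4 mice in each of the 8 groups. The knockout is constitutive, not limited to the liver. The labels give ages of 7.5 to 16 with no unit, and in the mice compared these were 9 to 16 fed and 7.5 to 14 fasted, 7.5 to 16 on LF and 8.5 to 13.5 on HF, and 7.5 to 13.5 in WT and 10 to 16 in KO mice.

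De novo lipogenesis makes fatty acids from carbohydrate carbon. Citrate leaves the mitochondrion, is cleaved to acetyl-CoA, and acetyl-CoA is carboxylated to malonyl-CoA, from which fatty acid synthase builds palmitate with NADPH as reductant. In liver the pathway is known to be transcribed under insulin, through the sterol regulatory element binding protein SREBP-1c, and under glucose, through the carbohydrate response element binding protein ChREBP, and malonyl-CoA is known to inhibit fatty acid entry into mitochondria. The members fall into suppliers of cytosolic acetyl-CoA (the mitochondrial citrate carrier Slc25a1, the ATP citrate lyase Acly and Acss2, which makes acetyl-CoA from acetate), the acetyl-CoA carboxylases (Acaca, the cytosolic ACC1, and Acacb, the mitochondria-associated ACC2), the synthase Fasn, the NADPH source Me1 (malic enzyme), the elongase Elovl6, which extends palmitate, and Thrsp (Spot 14), a regulator of lipogenesis.

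The start regions of Fasn, Thrsp and Acacb are shown because Fasn and Thrsp had 2 of the 3 largest changes with fasting and Acacb was the member that changed with diet, and that of Slc25a1 because it had the smallest change with fasting. Each window holds 250 bases before and 50 after an annotated start, from RefSeq on GRCm38.p6, on the strand of the gene. They lie at chr11:120824498-120824797 (Fasn, minus strand), chr7:97417501-97417800 (Thrsp, minus strand), chr5:114165268-114165567 (Acacb, plus strand) and chr16:17928170-17928469 (Slc25a1, minus strand). The Acacb window lies inside the longer GENCODE gene. Capitals mark the CCAAT box (CCAAT or its reverse ATTGG), the E-box (CACGTG), the GC box (GGGCGG or its reverse CCGCCC) and the TATA box (TATAAA).
Fasn: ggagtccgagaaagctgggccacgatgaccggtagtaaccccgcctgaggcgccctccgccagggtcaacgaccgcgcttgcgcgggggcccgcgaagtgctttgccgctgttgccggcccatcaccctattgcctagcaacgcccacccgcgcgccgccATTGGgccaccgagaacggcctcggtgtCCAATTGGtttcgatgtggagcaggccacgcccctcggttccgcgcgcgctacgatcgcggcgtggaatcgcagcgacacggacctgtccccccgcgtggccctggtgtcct
Thrsp: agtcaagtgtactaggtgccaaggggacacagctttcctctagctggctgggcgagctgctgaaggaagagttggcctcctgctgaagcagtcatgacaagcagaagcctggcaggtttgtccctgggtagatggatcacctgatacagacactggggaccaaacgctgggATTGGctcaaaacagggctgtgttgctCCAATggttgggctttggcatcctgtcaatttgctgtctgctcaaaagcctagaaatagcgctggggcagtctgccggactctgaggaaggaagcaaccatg
Acacb: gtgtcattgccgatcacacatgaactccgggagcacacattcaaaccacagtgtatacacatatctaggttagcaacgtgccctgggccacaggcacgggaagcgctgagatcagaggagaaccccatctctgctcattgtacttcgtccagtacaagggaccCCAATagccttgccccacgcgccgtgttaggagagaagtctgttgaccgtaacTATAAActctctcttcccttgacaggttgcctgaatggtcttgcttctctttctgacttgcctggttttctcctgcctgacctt
Slc25a1: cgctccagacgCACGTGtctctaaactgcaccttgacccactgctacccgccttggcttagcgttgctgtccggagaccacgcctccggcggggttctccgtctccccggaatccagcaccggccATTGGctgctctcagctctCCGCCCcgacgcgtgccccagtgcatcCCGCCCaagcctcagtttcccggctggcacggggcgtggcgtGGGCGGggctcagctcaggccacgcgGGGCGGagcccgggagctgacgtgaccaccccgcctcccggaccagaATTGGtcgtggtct
CCAAT, the core that the factor NF-Y is known to bind, stood on either strand in 7 of the 10 member windows (Me1 has a pair of windows) and in 37.4% of all 32851 promoter windows. The Fasn window held it 3 times, the last 2 matches overlapping in CCAATTGG, and the Thrsp window held it in both orientations. TATAAA was found in the Acacb window alone among the members, against 13.6% of all windows. GGGCGG was in 4 of the 10, against 35.7%, and the palindromic E-box CACGTG was in 1, that of Slc25a1, against 7.15%. A sterol regulatory element written as TCACNCCAC was in 0 of the 10 and in 1.24% of all windows. These matches describe letters in a 300-base window only.

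The gene counts summed to 2031053 to 4292200 per mouse (median 2899001). Levels are given in CPM, the count of a gene per 1000000 counts of the TMM-scaled total of its library, and n is the number of mice. 2 libraries were left out: KO HF fasted replicate 4, which had 7920 CPM of the heart actin Actc1 and 298 CPM of albumin (Alb, 10800 to 27100 CPM in the 30 others), and WT LF fed replicate 2, whose summed hepatocyte markers (31800 CPM) lay below those of the 30 others (45000 to 69300 CPM). The Alb (13100 CPM) and Actc1 (2.84 CPM) of WT LF fed replicate 2 were within the range of the 30 others. Acadm read 8.98 to 37.1 CPM in the KO mice and 190 to 748 CPM in the WT mice. Of 10 known fasting genes, 9 rose with fasting and Pdk4 did not pass the test. Summed, they separated fed from fasted mice on LF (3200 to 5420 against 31700 to 56100 CPM) but not on HF, where WT HF fasted replicate 2 (7680 CPM) and KO HF fasted replicate 1 (8070 CPM) lay below WT HF fed replicates 1 and 2 (9070 and 9810 CPM). WT HF fasted replicate 2 had 17300 CPM of acinar pancreas markers, against at most 2540 CPM in any other mouse, and the adipocyte list without Car3, which liver expresses, summed to 26.5 to 207 CPM. The part of these markers in the lipogenic values was not tested. Each library is 1 mouse. All 4 WT LF fed mice were on lane 8.

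Fasting lowered all 9 genes. Averaged over the 4 combinations of genotype and diet, 9 of 9 were lower in fasted than in fed mice, where 9.14% of all genes tested were called lower, 9.77% higher and 18.9% in either direction (edgeR quasi-likelihood test, Benjamini-Hochberg adjusted p below 0.05). The fitted falls ran from 1.51-fold (Slc25a1) to 14.7-fold (Thrsp). The median log2 fold change of the 9 was -1.82, which is 28.3% of the fed level, while the median of all genes was -0.0022. In bulk liver RNA, fewer hepatocytes and less RNA per hepatocyte cannot be told apart, and the summed hepatocyte markers were 44600 to 68800 CPM in the 30 mice. Within lane 8, where some groups hold 1 mouse, all 9 fitted values were negative. Within lane 7, which holds no WT LF fed mice, all 9 were negative and 5 passed (Slc25a1, Acly, Acss2, Acaca and Fasn). The share of all genes called on lane 7 is not set beside this count.

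**Figure D1:**
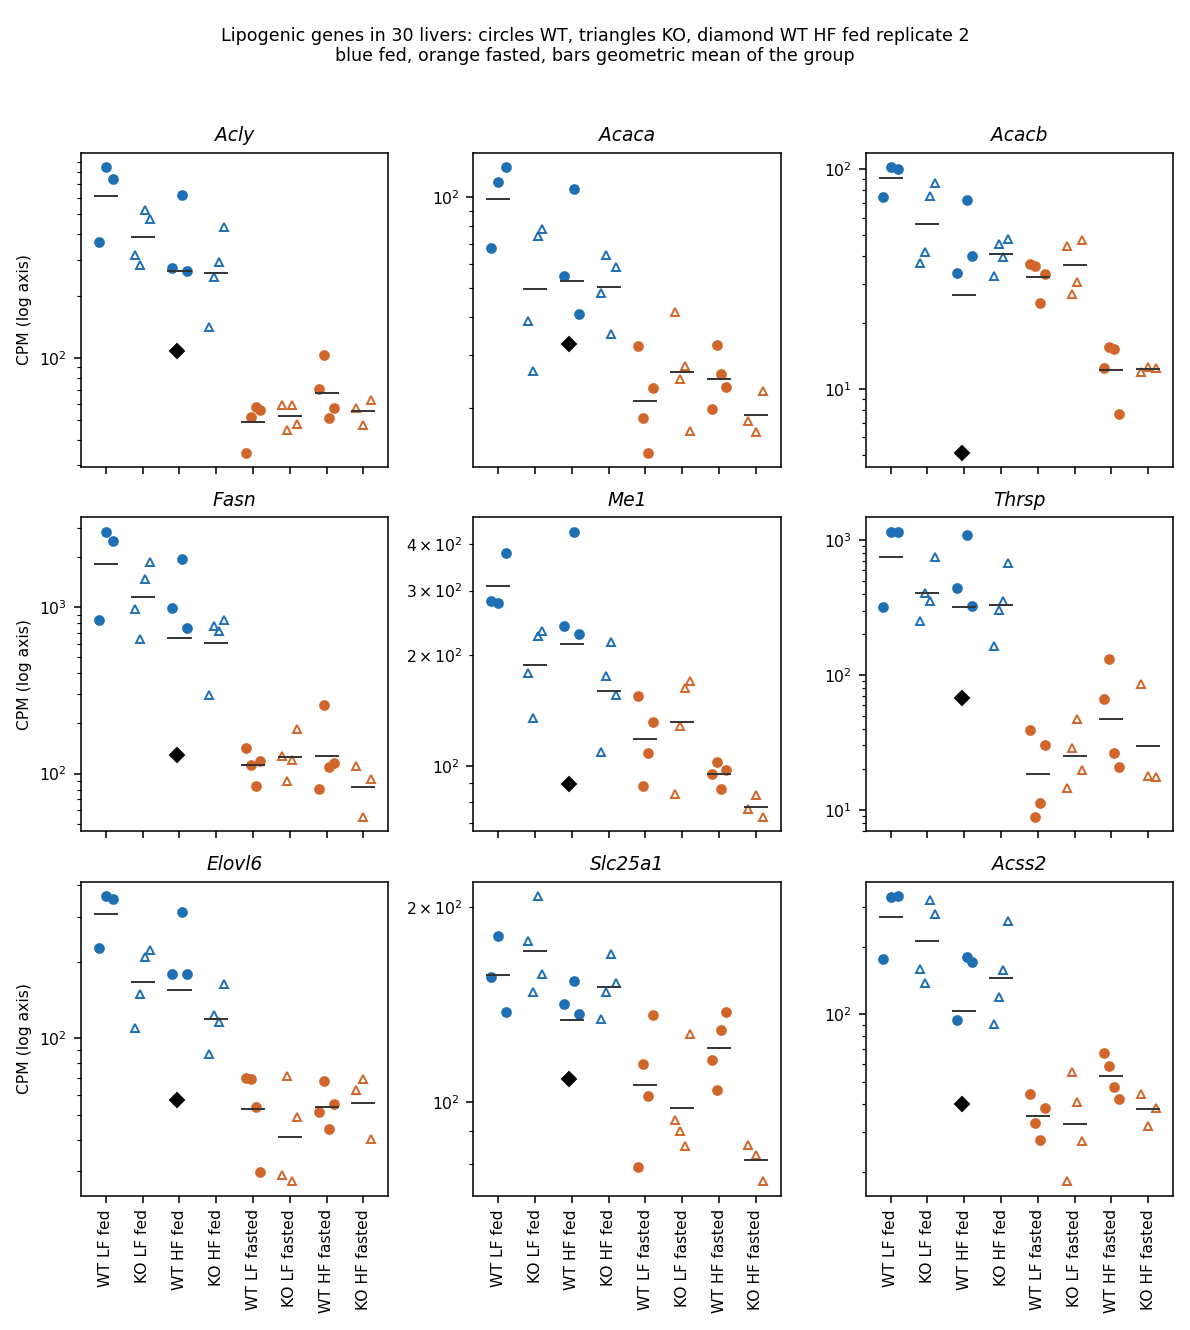
Level of each of the 9 lipogenic genes in CPM (log axis) in each of 30 mice, by group; circles are WT, triangles KO, blue fed, orange fasted, and bars the geometric mean of the group. Acly is the only gene whose 15 fasted mice all lie below its 15 fed mice, and the black diamond, WT HF fed replicate 2, lies near the fasted mice for most of the genes.

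The suppliers of acetyl-CoA responded unequally. Acly read 367, 845 and 743 CPM in WT LF fed mice and 34.6, 51.3, 57.8 and 55.9 CPM in WT LF fasted mice. In KO LF mice it read 317, 283, 522 and 474 CPM fed and 58.7, 44.6, 59.1 and 47.7 CPM fasted. On HF, WT mice had 274, 108, 621 and 265 CPM fed and 70.2, 103, 51.0 and 57.0 CPM fasted. Even the lowest fed mouse, at 108 CPM, was above the highest fasted one, at 103 CPM. KO HF mice had 142, 248, 292 and 431 CPM fed and 57.3, 47.3 and 62.3 CPM fasted. Acly was the only member with no overlap between all 15 fasted and all 15 fed mice, a separation that 0.104% of all genes showed in the lower direction. Its average fall was 6.88-fold (log2 fold change -2.78 ± 0.22 SE, edgeR adjusted p = 1.02e-09).

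Acss2, which captures acetate, fell 4.63-fold on average (log2 fold change -2.21 ± 0.22 SE, edgeR adjusted p = 5.87e-08). In WT LF mice it went from 177, 334 and 336 CPM fed to 44.3, 32.9, 27.6 and 38.2 CPM fasted, without overlap. Its exons share bases with Gss and Ggt7 on the opposite strand, and since the strand setting of the counting is not given in the sources used here, reads of these genes cannot be told apart. Slc25a1, which exports the citrate that Acly cleaves, had the smallest change: 156, 181 and 138 CPM in WT LF fed mice against 79.3, 114, 102 and 136 CPM in WT LF fasted mice. These groups stood apart by little, 138 against 136 CPM. The average fall of Slc25a1 was 1.51-fold (log2 fold change -0.60 ± 0.09 SE, edgeR adjusted p = 1.12e-06). In WT HF mice its fasted values (116, 104, 129 and 138 CPM) lay among the fed ones (142, 108, 154 and 137 CPM), whereas in KO HF mice 85.7, 82.7 and 75.3 CPM fasted lay well below 134, 148, 169 and 153 CPM fed.

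Both carboxylases fell. Acaca, which makes the malonyl-CoA used for synthesis, fell 2.74-fold on average (log2 fold change -1.45 ± 0.19 SE, edgeR adjusted p = 1.31e-06). It read 67.8, 112 and 125 CPM in WT LF fed mice and 32.04, 18.5, 14.2 and 23.3 CPM in WT LF fasted mice. The KO LF groups overlapped, at 38.8, 26.6, 74.2 and 78.2 CPM fed and 41.5, 24.98, 27.4 and 16.8 CPM fasted. Acacb, whose malonyl-CoA is known to act on mitochondrial fatty acid entry, fell 2.59-fold (log2 fold change -1.37 ± 0.22 SE, edgeR adjusted p = 3.07e-05).

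Fasn, Thrsp and Acly had the largest falls. Fasn, the multifunctional enzyme that assembles palmitate, read 837, 2842 and 2492 CPM in WT LF fed mice and 142, 112, 83.7 and 119 CPM in WT LF fasted mice. In KO LF mice it read 974, 645, 1476 and 1862 CPM fed and 128, 89.6, 120 and 185 CPM fasted. The LF fed and fasted mice did not overlap, with 645 CPM as the lowest fed and 185 CPM as the highest fasted value. On HF, Fasn read 986, 129, 1960 and 747 CPM in WT fed mice and 81.2, 257, 110 and 115 CPM in WT fasted mice. KO HF mice had 296, 770, 723 and 833 CPM fed and 111, 54.8 and 92.9 CPM fasted. The WT HF groups overlapped through 1 fed mouse, at 129 CPM, and 1 fasted mouse, at 257 CPM. The average fall of Fasn was 9.71-fold (log2 fold change -3.28 ± 0.31 SE, edgeR adjusted p = 4.22e-08).

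Thrsp had the largest fall, 14.7-fold on average (log2 fold change -3.88 ± 0.43 SE, edgeR adjusted p = 4.12e-07), and a wide spread within groups. WT LF mice had 319, 1158 and 1155 CPM fed and 38.7, 8.83, 11.2 and 30.1 CPM fasted. KO LF mice had 250, 407, 355 and 758 CPM fed and 14.6, 28.8, 46.9 and 19.6 CPM fasted. On LF the highest fasted mouse was at 46.9 CPM and the lowest fed one at 250 CPM. On HF, WT mice had 446, 67.7, 1099 and 324 CPM fed and 66.6, 132, 26.3 and 20.8 CPM fasted. KO HF mice had 164, 306, 352 and 677 CPM fed and 86.0, 17.7 and 17.3 CPM fasted. The highest fasted mouse of each HF group, WT HF fasted replicate 2 and KO HF fasted replicate 1, also had the lowest level of the fasting gene Cyp4a10 of the fasted mice, 444 and 485 CPM, where the 13 others had at least 1444 CPM. WT HF fasted replicate 2 is also the mouse with pancreas markers. In the order of group means, the 4 fed groups came before the 4 fasted groups for all 9 genes, for Acacb by little (37.7 against 37.5 CPM). For Acly, Fasn, Thrsp and Elovl6 the only neighbours in that order that did not overlap were KO HF fed mice and the fasted group next to them. That group was WT HF fasted mice for Acly, Fasn and Thrsp and KO HF fasted mice for Elovl6.

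Me1, which releases NADPH while turning malate into pyruvate, fell 2.12-fold (log2 fold change -1.08 ± 0.16 SE, edgeR adjusted p = 8.65e-06). It spanned 278 to 378 CPM in WT LF fed mice and 88.2 to 155 CPM in WT LF fasted mice. Elovl6 fell 3.53-fold (log2 fold change -1.82 ± 0.20 SE, edgeR adjusted p = 3.06e-07), from 227 to 362 CPM fed to 29.9 to 70.0 CPM fasted in WT LF mice. For neither gene did the WT LF groups overlap. Short exon stretches of both overlap antisense genes.

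Within each combination of genotype and diet all 9 fitted values were negative, but the number that passed differed. In WT LF mice 9 of 9 were called lower (background 3.79% of genes), with a median log2 fold change of -2.50 and a range from -0.55 (Slc25a1) to -5.28 (Thrsp, 38.8-fold). All WT LF fed mice were on lane 8 and WT LF fasted replicates 1 and 2 on lane 7. Feeding and lane are therefore partly mixed in WT LF mice, which also enter the difference between diets below. The KO LF mice had 6 of 9 called (background 6.53%), with a median of -1.94. Acaca (-0.99, edgeR adjusted p = 0.0671), Acacb (-0.69, 0.299) and Me1 (-0.50, 0.318) did not pass there. On HF, 4 of 9 passed in WT mice (Acly, Fasn, Me1 and Elovl6, with a background of 0.156% and a median of -1.57) and 4 of 9 in KO mice (Acly, Fasn, Slc25a1 and Acss2, with a background of 0.233% and a median of -1.75). By rank alone, fasted mice lay entirely below fed mice for 9 genes in WT LF (background 10.2%), 6 in KO LF (6.97%), 2 in WT HF (2.7%, Acly and Acaca) and 9 in KO HF (5.2%). Single mice decided the HF counts: without 1 mouse the WT HF count ran from 0 to 6 and the KO HF count from 0 to 6, with 0 in WT HF without WT HF fed replicate 3 or without WT HF fasted replicate 1, 3 or 4, and 0 in KO HF without KO HF fasted replicate 2 or 3 or KO HF fed replicate 3.

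**Figure D2:**
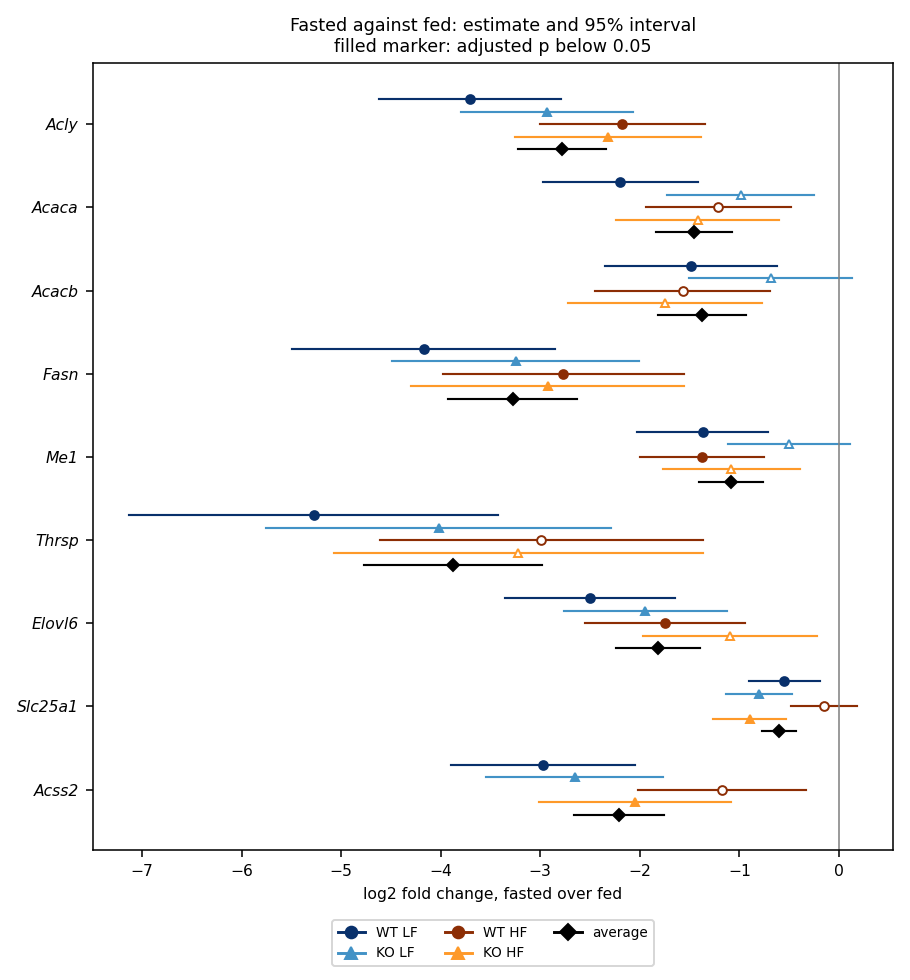
Log2 fold change of fasted over fed mice (horizontal axis) with its 95% interval for the 9 genes, within WT LF, KO LF, WT HF and KO HF mice and averaged over them; filled markers passed at an adjusted p below 0.05. Every estimate is negative, the averages run from -0.60 for Slc25a1 to -3.88 for Thrsp.

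Whether the fall differed between diets was tested directly. Of 9 genes, 0 passed in edgeR (adjusted p from 0.161 to 0.843, 2 with an unadjusted p below 0.05), and DESeq2 and limma voom also called 0, where edgeR called 2.46% of all genes. The fitted fall was smaller on HF for 7 genes and larger for 2. Acss2 differed by 1.21 on the log2 scale (95% interval 0.33 to 2.08) and Acly by 1.07 (0.23 to 1.91), and these intervals leave out 0 before adjustment. For Thrsp the difference was 1.54 (-0.07 to 3.16), for Fasn 0.86 (-0.33 to 2.05) and for Elovl6 0.80 (-0.02 to 1.62). Acacb and Me1 had differences of -0.57 (-1.45 to 0.31) and -0.30 (-0.94 to 0.35). Without WT HF fed replicate 3, which had the highest level of its group for all 9 genes, 1 member passed. For a fall that differs between genotypes 0 of 9 passed in edgeR (background 0%, 1 with an unadjusted p below 0.05), and DESeq2 and limma voom called 0. The gene with the smallest p was Slc25a1, whose log2 fold change differed by -0.50 ± 0.17 SE in KO from that in WT mice (edgeR adjusted p = 0.942).

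The HF diet changed 1 of the 9 genes. Averaged over genotype and feeding state, Acacb was 2.28-fold lower on HF (log2 fold change -1.19 ± 0.21 SE, edgeR adjusted p = 0.00175), where 1.24% of all genes were called lower, 2.26% higher and 3.49% in either direction. The fitted values of 7 others were also negative and that of Thrsp was positive, with a median of -0.26 over the 9 against 0.0068 over all genes. None of these 8 passed. Me1 had the next smallest p (-0.43, 95% interval -0.75 to -0.11, edgeR adjusted p = 0.142), followed by Fasn (-0.58, -1.18 to 0.02, adjusted p = 0.336). The narrowest interval was that of Slc25a1 (-0.31 to 0.04) and the widest that of Thrsp (-0.58 to 1.03). Within lane 7 the effect of Acacb was -0.96 (edgeR adjusted p = 0.415) and within lane 8 it was -1.32 (2.56e-05), lane 7 having no WT LF fed mice. Beside the 9.71-fold fall with fasting, the average fall of Fasn with HF diet was 1.5-fold, and both rest on the same mice.

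Acacb by mouse shows where the change lay. LF fed mice had 74.7, 102 and 99.3 CPM (WT) and 37.5, 41.7, 74.9 and 86.1 CPM (KO). HF fed mice had 33.4, 5.12, 72.1 and 40.2 CPM (WT) and 32.5, 45.5, 39.6 and 48.1 CPM (KO). The WT groups did not overlap, by 74.7 against 72.1 CPM, and the KO groups did. Fasted LF mice had 36.9, 36.1, 24.6 and 33.2 CPM (WT) and 44.6, 27.04, 30.6 and 47.7 CPM (KO). Fasted HF mice had 12.4, 15.4, 15.1 and 7.71 CPM (WT) and 11.9, 12.6 and 12.5 CPM (KO). In the fasted state every HF mouse lay below every LF mouse in both genotypes. The fitted diet effects were -1.27 in WT fed, -0.54 in KO fed, -1.36 in WT fasted and -1.60 in KO fasted mice, with edgeR adjusted p of 0.622, 0.846, 0.138 and 0.0899. Without WT HF fed replicate 2, which is in neither fasted comparison, the fasted effects kept their size. Both then passed, with edgeR adjusted p of 0.00397 in WT and 0.00246 in KO mice. The average call rests on leaving out the heart library labelled KO HF fasted replicate 4, which had 117 CPM of Acacb: with it, the change was -0.78 (edgeR adjusted p = 0.252).

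Within single diet comparisons edgeR called 0 of the 9. Members with an unadjusted p below 0.05 numbered 4 in WT fed, 0 in KO fed, 1 in WT fasted and 2 in KO fasted mice. DESeq2 called 1 in each of the fasted comparisons and 0 in the fed ones, and limma voom called 0 in all 4. The background by edgeR was 0.0778%, 0.00865%, 1.12% and 1.68% of genes in the order above, and no background by DESeq2 or limma voom is given. In fed mice all 9 fitted values were negative in both genotypes, with medians of -0.86 (WT) and -0.50 (KO). The WT LF fed mice were all on lane 8 and WT HF fed replicates 1 to 3 on lane 7, so diet and lane are largely mixed in WT fed mice. Both KO fed groups had mice on lanes 7 and 8. In fasted mice the medians were 0.19 (WT) and -0.29 (KO), with 6 and 4 positive values. HF mice lay entirely below LF mice for 1 gene in WT fed (Acacb, background 3.99%), 0 in KO fed (2.8%), 1 in WT fasted (Acacb, 3.44%) and 2 in KO fasted mice (Acacb and Me1, 4.19%).

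**Figure D3:**
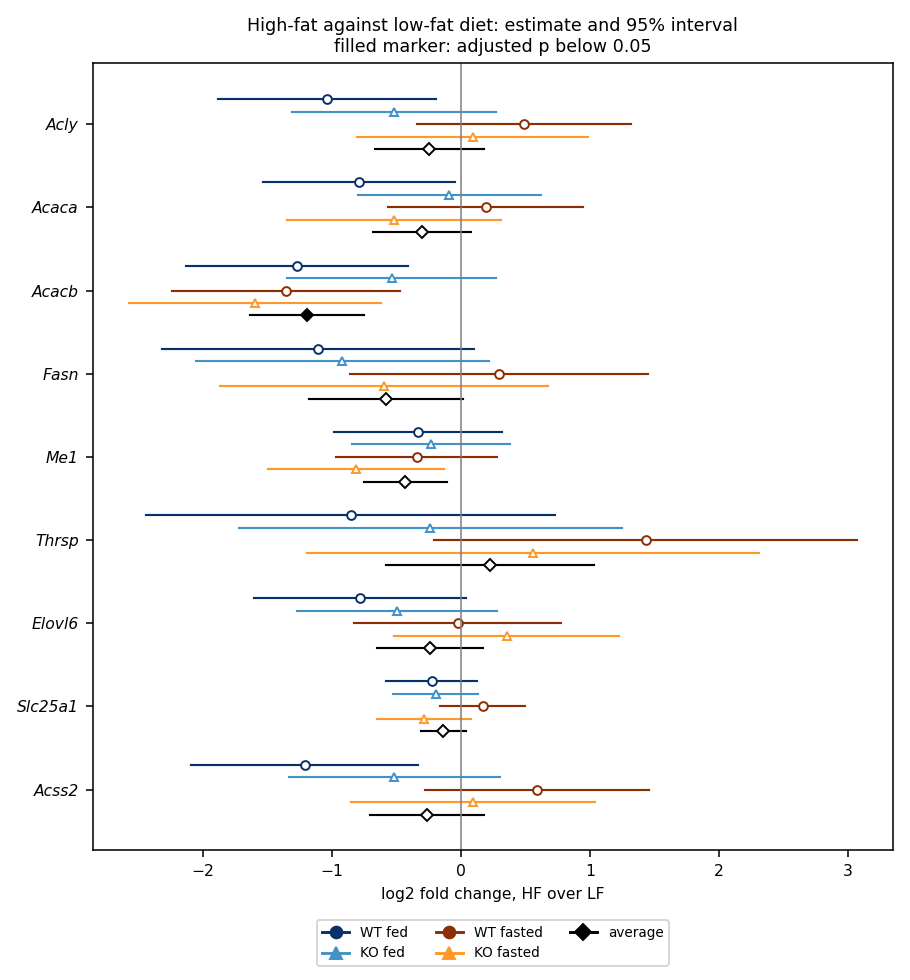
Log2 fold change of HF over LF mice (horizontal axis) with its 95% interval for the 9 genes, within WT fed, KO fed, WT fasted and KO fasted mice and averaged over them; the only filled marker, an adjusted p below 0.05, is the average of Acacb at -1.19. The fed estimates lie left of 0 for all 9 genes and the fasted ones on both sides.

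WT HF fed replicate 2 stood apart from its group. It was the lowest of the 15 fed mice for 8 of the 9 genes and lay within or below the range of the fasted mice for 8, with 129 CPM of Fasn, 67.7 CPM of Thrsp and 5.12 CPM of Acacb. Its Scd1 level, the desaturase that follows the pathway, was 283 CPM, against at least 1330 CPM in every other mouse. Yet Cyp4a10 (145 CPM) and Cpt1a (171 CPM) were at the level of fed mice, and Srebf1 (147 CPM) and Mlxipl (276 CPM) were above every fasted mouse. Other genes went the other way. Insig1 (34.8 CPM) was the lowest of the 15 fed mice, and both it and Mid1ip1 (64.8 CPM) lay within the fasted range. This mouse also had the highest Pck1 (6600 CPM), another fasting gene, and the highest summed fasting genes (9810 CPM) of the fed mice. Without it the median diet effect in WT fed mice was -0.59 in place of -0.86, that of Me1 -0.05 in place of -0.33, that of Acss2 -0.92 in place of -1.21 and that of Acacb -0.91 in place of -1.27. The average diet effect of Acacb was then -1.10 (edgeR adjusted p = 4.13e-06), and 6 members passed for fasting in WT HF mice in place of 4. The share of all genes called without this mouse is not set beside that count.

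The ratio of Acacb to Acaca counts set the carboxylases against each other within each mouse, a comparison chosen after their values had been seen. The size of the ratio depends on how each transcript end is counted and only its change is read. In WT LF mice it was 1.1, 0.907 and 0.794 fed and 1.15, 1.96, 1.73 and 1.42 fasted. In WT HF mice it was 0.614, 0.157, 0.682 and 0.983 fed and 0.625, 0.477, 0.586 and 0.328 fasted. In KO LF mice it ranged from 0.967 to 1.57 fed and from 1.07 to 2.84 fasted, and in KO HF mice from 0.679 to 1.13 fed and from 0.548 to 0.755 fasted. All HF fasted mice were below 1 and all LF fasted mice above 1. On HF the ratio was 2.04-fold lower (mean log2 difference -1.02, two-sided exact permutation p within groups of genotype and feeding = 2.52e-05, adjusted over 3 comparisons 7.56e-05). The difference was -0.89 without WT HF fed replicate 2 (exact permutation p = 1.87e-05), -0.97 on lane 7 (exact permutation p = 0.00278, 13 mice) and -1.06 on lane 8 (exact permutation p = 0.0764, 14 mice). For fasting the average log2 difference of the ratio was 0.16 (exact permutation p = 0.452) and for genotype 0.31 (exact permutation p = 0.12, adjusted 0.18). The fasting average joins unlike diets. From fed to fasted the mean log2 ratio went from -0.11 to 0.62 in WT LF and from 0.19 to 0.47 in KO LF mice. On HF it went from -0.99 to -1.03 in WT and from -0.29 to -0.62 in KO mice.

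**Figure D4:**
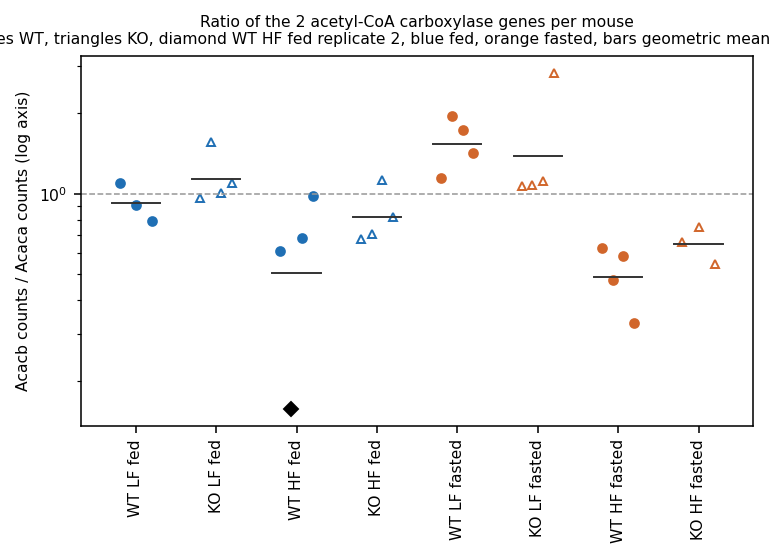
Ratio of Acacb to Acaca counts (log axis) in each of 30 mice by group; circles are WT, triangles KO, blue fed, orange fasted, the black diamond is WT HF fed replicate 2, bars are geometric means and the dashed line is a ratio of 1. The LF fasted mice lie between 1.07 and 2.84 and the HF fasted mice between 0.328 and 0.755.

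None of the 9 genes passed the test between genotypes. edgeR, DESeq2 and limma voom called 0 in the average comparison and in each diet and feeding state, where edgeR called 0.00865% of genes, which is Acadm itself. The average fitted values were all negative (median -0.29, 2 with an unadjusted p below 0.05). The widest gap was in LF fed mice, with 8 of 9 values negative, a median of -0.71 and 3 with an unadjusted p below 0.05. Thrsp (-0.99, 95% interval -2.57 to 0.60), Acaca (-0.89, -1.64 to -0.15) and Elovl6 (-0.86, -1.68 to -0.04) were the lowest there. KO mice lay entirely below WT mice for Me1 and Elovl6 in LF fed mice (background 3.58%): Me1 read 179, 135, 226 and 233 CPM in KO and 281, 278 and 378 CPM in WT. Lane was unbalanced in this comparison, with all WT LF fed mice on lane 8. KO LF fed replicates 1 and 2 (179 and 135 CPM of Me1) were on lane 7, and replicates 3 and 4 (226 and 233 CPM) on lane 8. Genotype and lane can therefore not be fully told apart in LF fed mice. WT LF fed replicate 2, which was left out, had 219 CPM of Me1 and 152 CPM of Elovl6 when scaled with all 32 libraries, within the KO range. In HF fasted mice Me1 and Slc25a1 were entirely lower in KO (background 2.6%), Slc25a1 with 75.3 to 85.7 CPM against 104 to 138 CPM. The diet effect did not pass as different between genotypes for any gene (0 of 9 by edgeR, DESeq2 and limma voom, 0 with an unadjusted p below 0.05, background 0%).

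Together the 9 genes took a median of 0.584% of all counts in WT LF fed mice, 0.301% in KO LF fed, 0.235% in WT HF fed and 0.212% in KO HF fed mice. In the fasted groups the median share was between 0.0418% and 0.0582%. The highest fasted mouse reached 0.0891%, in WT HF fasted, and the lowest fed mouse was WT HF fed replicate 2 at 0.0663%. Across the 30 mice the 36 pairs of members had a median Pearson r of 0.802 (0.573 to 0.967), which the feeding state enters. After subtracting the group means the median was 0.639 (-0.011 to 0.85). The lowest median within groups was that of Slc25a1 (0.276) and the highest that of Fasn (0.712). The points share libraries and their scaling, and r is given as a description.

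The regulators of lipogenesis split with fasting. Of 20 tested, 4 fell and 5 rose (median -0.13 against -0.0022 over all genes), where 9.14% of all genes fell and 9.77% rose. The 4 that fell include the transcription factors Srebf1, which encodes SREBP-1c (5.26-fold, log2 fold change -2.40 ± 0.22 SE, edgeR adjusted p = 1.61e-08), and Mlxipl, which encodes ChREBP (1.94-fold, log2 fold change -0.96 ± 0.08, 9.05e-12). The others were Insig1, a target and inhibitor of SREBP (7.46-fold), and Mid1ip1, a paralog of Thrsp that acts on acetyl-CoA carboxylase (5.24-fold). Insig2, a further SREBP inhibitor, Trib3, Irs2, Ppargc1b and Mlycd, which breaks down malonyl-CoA, rose. With HF diet only Usf1 of the 20 passed, 1.36-fold higher (edgeR adjusted p = 0.0143, background 2.26% higher), and Insig2 had -0.36 (0.0604).

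Of these 20 regulators 5 passed the test of a fasting response that differs between diets, 4 upward, where 1.26% of genes were called upward. The fall was smaller on HF for Insig1 (difference 2.58 ± 0.46 SE on the log2 scale, edgeR adjusted p = 0.00309), Mlxipl (0.81 ± 0.16, 0.00247) and Mid1ip1 (1.64 ± 0.40, 0.0266). Mlxipl is known to encode a glucose-responsive factor, and Insig1 is a known SREBP target. The activity of these factors was not measured in these data. For Scap, the SREBP escort protein, the difference was 0.76 ± 0.17 (edgeR adjusted p = 0.00981), and for Insig2 it was -0.91 ± 0.22 (0.0208). Srebf1 had 1.33 ± 0.42 and did not pass (edgeR adjusted p = 0.111). Of the 10 fasting genes 6 also had a smaller response on HF, such as Cyp4a10 (-2.15 ± 0.56, edgeR adjusted p = 0.0386), where 1.2% of all genes were called in that direction. WT HF fasted replicate 2 and KO HF fasted replicate 1 had the lowest Cyp4a10 of the fasted mice (444 and 485 CPM). They also had the highest Srebf1 (91.8 and 66.7 CPM) and Mlxipl (223 and 199 CPM) of the HF fasted mice. The other HF fasted mice had 147 to 189 CPM of Mlxipl. The part of these mice in the differences between diets was not tested.

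**Figure D5:**
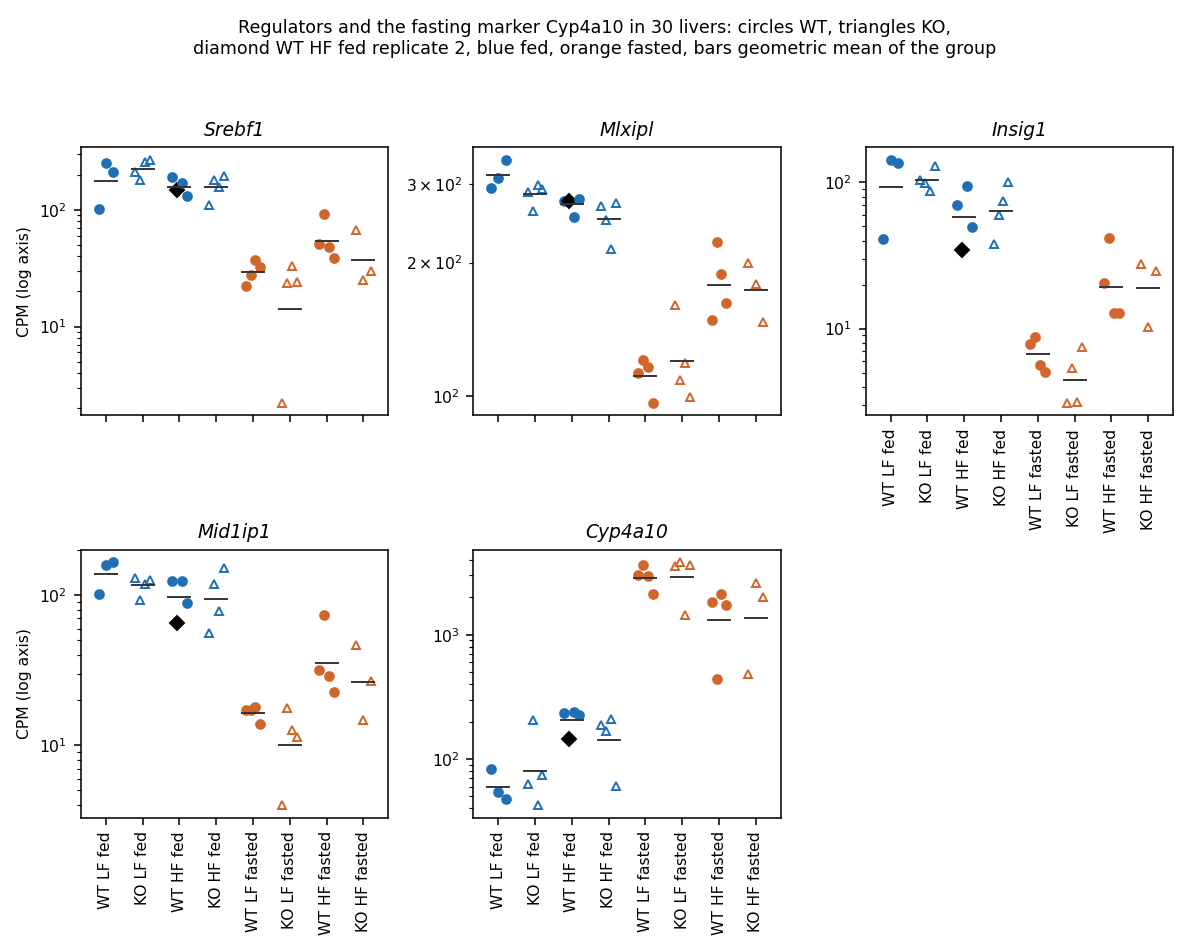
Levels of Srebf1, Mlxipl, Insig1, Mid1ip1 and Cyp4a10 in CPM (log axis) in each of 30 mice by group; circles are WT, triangles KO, blue fed, orange fasted, the black diamond is WT HF fed replicate 2 and bars are geometric means. The first 4 genes are lower in fasted groups and Cyp4a10 is higher, from 42.2 to 241 CPM fed to 444 to 3856 CPM fasted.

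Sugar use supplies the carbon and the NADPH of the pathway. Of 15 genes of sugar use and of citrate and NADPH supply, 10 fell and 3 rose (median -0.52), against the same 9.14% and 9.77% of all genes. Pklr, liver pyruvate kinase, fell 5.12-fold (edgeR adjusted p = 3.42e-08). Pgd of the pentose phosphate pathway fell 2.12-fold (edgeR adjusted p = 7.35e-08) and the fructose kinase Khk 1.99-fold (1.01e-06). Pcx, which also serves gluconeogenesis, and the mitochondrial dicarboxylate carrier Slc25a10 were among those that rose. With HF diet 0 of the 15 passed in edgeR, 4 with an unadjusted p below 0.05, where 3.49% of all genes passed.

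Genes that use the fatty acid product moved both ways. Of 19, 9 fell and 6 rose with fasting (median -0.27), where 9.14% and 9.77% of all genes did. The desaturases Scd1 and Fads1, the elongases Elovl2 and Elovl3, and Gpam, Dgat2 and Pnpla3 of the triglyceride branch were among those that fell. Acsl1, which activates fatty acids, rose 2.86-fold (edgeR adjusted p = 7.65e-14), Pnpla2, the triglyceride lipase ATGL, rose 2.63-fold (1.96e-09) and Cidec, a lipid droplet protein, 26.6-fold (6.73e-07). All 3 had a smaller response on HF, 3 of the 19 where 1.2% of all genes were called in that direction. Mean Cidec went from 1.27 to 93.4 CPM in WT LF and from 0.338 to 120 CPM in KO LF mice. On HF it went from 3.93 to 19.2 CPM (WT) and from 6.22 to 28.3 CPM (KO), with fed and fasted mice overlapping. With HF diet Pnpla2 was 1.49-fold lower (edgeR adjusted p = 0.00967) and Lpin1, a phosphatidate phosphatase, 2.27-fold lower (0.0452), 2 of the 19 where 1.24% of all genes were called lower. Lpin1 spread widely in WT LF fasted mice, from 31.05 to 652 CPM with a median of 84.5 CPM.

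The genes most like the members over the 30 mice, by Pearson r with the mean of the 9 standardized log2 CPM values, were Chrna4 (0.976), Pmvk (0.941), Rdh11 (0.94), 1810008I18Rik (0.939), Qdpr (0.921), Acat2 (0.918), Pnpla3 (0.904), Sc5d (0.899), Qprt (0.884) and Derl2 (0.883). Pmvk, Acat2 and Sc5d are enzymes of the sterol pathway. The members' own r to this mean ran from 0.793 (Acacb) to 0.987 (Fasn). Chrna4, a nicotinic receptor subunit, read 20.2 to 174 CPM in WT LF fed mice and 0 to 0.372 CPM in WT LF fasted mice, and Sc5d fell by 1.80 on the log2 scale with fasting. These values describe these mice, in which feeding state is the main difference.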

How the data were processed

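Liver RNA of 32 mice was studied, 1 library per mouse. Per the labels and the methods, the authors made QuantSeq 3′ libraries, mapped reads to GRCm38 with HISAT 0.1.5, used SAMtools 1.2, counted reads per gene with HTSeq 0.6.1p1 in union mode and deposited the raw counts without normalization. The Ensembl release is given as 82 in the methods and as 76 for the table, and the strand setting is not given in the sources used here. Symbols and positions came from GENCODE vM21 (19913 of 20076 identifiers).

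Groups, replicate numbers and lanes came from the labels. The 9 genes, the further gene lists and the tests were chosen with earlier results of these data known. The main test was edgeR 4.0.16 (R 4.3.3) (TMM, filterByExpr), with its robust quasi-likelihood test in 1 model of the 8 groups over 30 mice with 22 residual degrees of freedom, adjusted over 11566 genes by Benjamini-Hochberg, with a threshold of 0.05. It was tested on simulated data. Log2 CPM used a prior count of 2. All 9 genes were named in each comparison, and from each further list up to 4 genes with the smallest p for fasting and up to 2 for diet; Scap, Insig2, Scd1, the genes listed by name beside a count and single mice were named after their values had been seen. A pair of further genes that this rule names is not reported here. DESeq2 1.42.0, limma 3.58.1 voom, other scaling, filters, mice and covariates, and leaving out each mouse, were tried. Ratios were tested by exact permutation within strata. Totals of 2031053 to 4292200 counts limit low genes most.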

Additional observations from a re-analysis of the deposited data

Results flagged for a closer look

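The 9 genes were checked in the groups of 4 mice for a highest or lowest mouse whose gap to its neighbour, relative to the range of the group on the log2 scale, exceeded Dixon's 95% critical value. Of 54 gene and group combinations, 1 was flagged, where chance flags about 1 in 20: KO HF fed replicate 1 had 296 CPM of Fasn, with the nearest mouse of its group at 723 CPM (gap over range 0.863). It also had the lowest value of its group for Acly (142 CPM), Thrsp (164 CPM), Me1 (109 CPM), Elovl6 (87.0 CPM), Slc25a1 (134 CPM), Acss2 (90.8 CPM) and Acacb (32.5 CPM), but not for Acaca. Its summed skeletal muscle markers were 1110 CPM and its heart markers 230 CPM, the highest of the 30 mice, and its acinar pancreas markers were 2540 CPM, the second highest of the 30 (58.0 CPM or less in the 28 below it). Their part in the lipogenic values was not tested.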

How the results depend on the processing

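The number of members lower with fasting on average was 9 of 9 in the settings tried, except 8 in all 32 mice, where Acacb was lost (-0.89 on the log2 scale; edgeR adjusted p = 0.0607), and 5 on lane 7 alone. With diet on average, 1 was called, against 0 in all 32 mice, 0 with KO HF fasted replicate 4 kept and 0 on lane 7, and 2 on lane 8 (Acacb and Me1). Signs of the average diet effect turned on lane 7 for Acly (0.115), Elovl6 (0.029) and Acss2 (0.062), and for Thrsp by limma voom (-0.008), on lane 8 (-0.395) and without KO HF fasted replicate 1 (-0.075, with 0.323 as the highest value without 1 mouse), none of these past the threshold. For fasting in WT HF mice, 4 were called, against 7 by DESeq2, 2 without the low count filter, 0 in all 32 mice, 2 with WT LF fed replicate 2 kept, 1 with KO HF fasted replicate 4 kept, 0 with only the mice compared and 2 with the replicate block. In KO HF mice 4 were called, against 8 by DESeq2, 2 without the filter, 2 with WT LF fed replicate 2 kept, 2 with lane as a term, 8 with only the mice compared and 2 with the replicate block. Diet in WT fasted mice gave 1 by DESeq2 and 1 with only the mice compared, and in KO fasted mice 1 by DESeq2. The cause of these differences was not tested.

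Leaving out 1 mouse gave 9 to 9 members for fasting on average, 1 to 2 for diet on average (2 without WT HF fed replicate 3), 0 to 1 for the difference of fasting between diets, 7 to 9 in WT LF, 6 to 7 in KO LF, 0 to 6 in WT HF and 0 to 6 in KO HF mice, and 0 to 1 for diet in WT fasted and in KO fasted mice. The WT HF count was 1 without WT HF fed replicate 1 or 4, and the KO HF count was 1 without KO HF fed replicate 4 and 2 without KO HF fasted replicate 1. The other comparisons stayed at 0. Over all genes, the 2187 calls for fasting became 376 on lane 7. The 404 for diet became 81 in all 32 mice, 80 with KO HF fasted replicate 4 kept and 117 on lane 7. The 285 for the difference of fasting between diets became 430 by DESeq2, 22 in all 32 mice, 152 with WT LF fed replicate 2 kept and 18 with KO HF fasted replicate 4 kept. Mice with the same replicate number did not deviate together (98 pairs, median r of their residuals 0.00603, against -0.00207 for 295 other pairs), so the number does not pair them. The block kept 9 calls for fasting and 1 for diet on average.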

Other observations

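The 2 libraries left out of the comparisons had the following levels when scaled with all 32. WT LF fed replicate 2 had 467 CPM of Fasn, 323 CPM of Acly, 19.2 CPM of Acacb and 29.6 CPM of Thrsp. Its Thrsp level lay among the fasted mice and its Acly level among the fed ones. KO HF fasted replicate 4, the library with heart transcripts, had 117 CPM of Acacb and 9.6 CPM of Acaca, the reverse order of the HF fasted livers. It had 16.0 CPM of Fasn, 23.7 CPM of Acly and 134 CPM of Me1.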
